A study of Mus musculus with 4 samples.

Results

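Colon neutrophils were picked out of a droplet single-cell RNA-seq survey of sorted mouse colon leukocytes, and they were rare: 55 of 20428 kept barcodes (0.269%) met the rule. A barcode was kept with at least 500 unique molecular identifiers (UMIs, 1 per captured transcript), at least 200 genes and at most 10% of UMIs on mitochondrial genes. A neutrophil was a kept barcode with at least 10 UMIs of S100a8 and S100a9 together, at least 2 of Retnlg, Csf3r and Cxcr2 together, and at most 1 UMI each of the macrophage C1q genes, of the T cell CD3 genes and of the B cell CD79 genes. The cells were thus selected on their UMIs of these genes, whose presence is a description and not a finding.

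Cells carrying CD45, a surface protein of leukocytes, had been sorted from whole colons of wild-type C57BL/6 mice. Stressed mice were restrained daily over 7 days, a rodent model of psychological stress, and the others received the control treatment. Each group has 2 libraries, called control 1 and 2 and stress 1 and 2 here, and both groups share strain and genotype. The labels give neither age nor sex and do not say whether a library is 1 animal, a pool or a separate day, so a p-value here speaks of the spread among 4 libraries, which may be technical.

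Neutrophils are short-lived phagocytes that mature in bone marrow, where they load primary (azurophil), then specific, then gelatinase granules, and leave as cells that no longer divide. The chemokine receptor Cxcr2 draws them into blood and tissue, while Cxcr4 holds them in marrow and returns as they age. In an inflamed gut they release interleukin 1 beta and chemokines that call in further myeloid cells, and interferon gamma or signals through NF-kB can alter what they transcribe.

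The neutrophils held 1 cell in control 1, 8 in control 2, 13 in stress 1 and 33 in stress 2, so the controls gave 9 cells and stress gave 46. Summed over cells, these libraries had 2054, 12267, 15690 and 85222 UMIs, and the controls supplied 12.4% of the total. Every control level below therefore rests on few molecules, and that of control 1 on a single cell. Median depth per neutrophil was 2054, 1581.5, 1215 and 2784 UMIs, and the median number of genes was 736, 672, 518 and 969. No barcode sequence was shared between the neutrophils of different libraries.

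The whole data set had 2941 to 10259 barcodes per library, of which 11.1 to 26.0% exceeded the mitochondrial limit and were dropped. Median depth of the kept barcodes ran from 2176 UMIs in stress 1 to 4559 in stress 2. The most mitochondrial barcodes and the greatest depth were both those of stress 2, the library with the most neutrophils.

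Their share of kept barcodes was 0.0393% in control 1 (95% Clopper-Pearson interval 0.000994 to 0.219), 0.147% in control 2 (0.0636 to 0.290), 0.156% in stress 1 (0.0832 to 0.267) and 0.80% in stress 2 (0.551 to 1.12). Control 2 and stress 1 were nearly level, and stress 2 stood apart from the rest. Under the main rule the groups did not overlap. Their means, 0.0932% ± 0.0763 and 0.478% ± 0.455 (SD, n = 2 each), differed by less than the spread between the stress libraries. The difference was 0.385 percentage points (two-sided exact permutation p = 0.333, the smallest that 2 against 2 libraries can give). Without stress 2 the difference was 0.0630 percentage points. Every barcode was also thinned to 500 UMIs with the thresholds lowered, to 5 UMIs of S100a8 and S100a9 and 1 of Retnlg, Csf3r and Cxcr2. Then 23 barcodes of stress 2 (0.557%) and 12 of stress 1 (0.144%) passed, and control 2 (0.147%) lay just above stress 1. Control 2 also lay above stress 1 with at least 20 UMIs of S100a8 and S100a9 (0.147 against 0.108%). The same held with at least 3 UMIs of Retnlg, Csf3r and Cxcr2 (0.147 against 0.144%) and with up to 25% mitochondrial UMIs (0.134 against 0.133%). Intervals cover counting error only.

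Set against their nearest relatives the order of the libraries changed. Monocytes, gated on Lyz2 and Ly6c2, Ccr2, Fn1 or F13a1, numbered 81, 76, 305 and 153, and macrophages, gated on C1q, numbered 229, 36, 211 and 179. Neutrophils made up 0.322, 6.67, 2.46 and 9.04% of these 3 myeloid classes, and control 2 lay above stress 1. The means were 3.49% ± 4.49 and 5.75% ± 4.66 (SD, n = 2 each, two-sided exact permutation p = 0.667). Without control 1 the difference turned to -0.917 percentage points, and without stress 2 to -1.04.

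**Figure D1:**
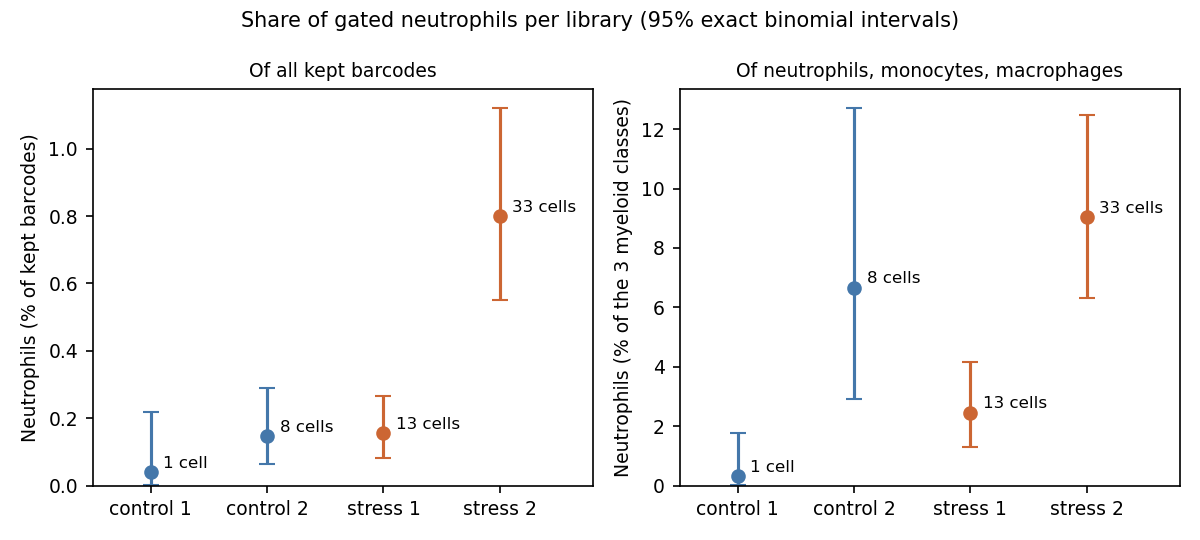
Share of neutrophils in each library, as a percentage of all kept barcodes (left) and of neutrophils, monocytes and macrophages together (right), with 95% exact binomial intervals and the number of cells. On the left stress 2 stands at 0.80% and the other libraries at 0.156% or less, while on the right control 2 (6.67%) lies between stress 1 (2.46%) and stress 2 (9.04%).

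The label was checked against markers that the rule had not used. G0s2, an inhibitor of triglyceride breakdown that mature neutrophils transcribe strongly, was found in 1 of 1, 8 of 8, 13 of 13 and 27 of 33 cells. Its summed level was 73.0, 107, 175 and 109 UMIs per 10000 in neutrophils and at most 0.147 in monocytes of any library. The 6 cells without G0s2 were all in stress 2, held 1070 to 3009 UMIs and 59 to 406 UMIs of S100a8 and S100a9, and all 6 also held Csf3r, Il1b and Cxcl2.

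Markers of other cells that the rule had not capped were scarce. The T cell genes Trac and Cd28, the monocyte genes Ccr2 and F13a1 and the macrophage gene Mrc1 were at 0, and the T cell gene Trbc2 had 1 UMI. Other members of these lists were present: 6 of 8 monocyte genes and 4 of 8 macrophage genes had a UMI. Plac8, of the monocyte list, stood at 0, 1.63, 6.37 and 8.10 UMIs per 10000, against 25.2, 21.9, 54.8 and 44.2 in monocytes. Apoe, of the macrophage list, had 2 and 11 UMIs in stress 1 and 2 and none in the controls. The CD3, C1q and CD79 genes were held low by the rule itself and show nothing further. Of 8 eosinophil genes 7 were at 0, among them the granule proteins Epx and Prg2, and Siglecf had 2 UMIs in all. The summed monocyte list stood at 4.87, 3.26, 7.65 and 9.97 UMIs per 10000, against at least 47.8 in monocytes. Plasma cell genes, led by immunoglobulin, stood at 4.87, 51.4, 38.9 and 67.1, and their part in any result was not tested.

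Free RNA in the droplets was read from B cells, which lack S100a8 and S100a9. A UMI of either gene was found in 0.0915, 0.0337, 0.168 and 1.15% of B cells at median depths of 2324, 2385, 1958 and 4126.5 UMIs. At least 10 such UMIs, as the rule demands, were found in 0, 0, 2 and 0 B cells.

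Near the threshold lay few barcodes of stress 2 and, set against its 13 neutrophils, more of stress 1. Just below 10 UMIs of S100a8 and S100a9, with the other conditions met, were 2 barcodes of stress 1 (8 UMIs each) and 4 of stress 2 (6, 6, 8 and 8), and just above it, from 10 to 19 UMIs, were 4 and 3. Short of the receptor condition were 7 barcodes in stress 1 and 1 in stress 2, and all of these held G0s2. With Retnlg taken out of the rule (at least 1 UMI of Csf3r or Cxcr2, an alternative added after the data were seen) stress 1 had 18 neutrophils and stress 2 had 34. In the controls no barcode lay just outside either threshold of the main rule. The lowest S100 sum was 188 in control 1 and 78 in control 2, and the lowest receptor sum 28 and 6. Under the rule without Retnlg the cell of control 1, with 1 UMI of Csf3r and 0 of Cxcr2, lay at the threshold.

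The S100 proteins S100a8 and S100a9 pair into calprotectin, which binds zinc and calcium and makes up much of the neutrophil cytosol. S100a8 stood at 282, 540, 228 and 237 UMIs per 10000, and S100a9 at 633, 872, 404 and 346. Both controls lay above both stress libraries for each gene. Membership rests on the sum of these 2 genes and its threshold lies close to cells of the stress libraries alone, so the levels are a description without a test. Single cells spread far more than libraries: in stress 2 the 2 genes together ran from 35.6 to 1658 UMIs per 10000 with a median of 577.

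Of 226 genes with enough UMIs to be tested between stress and control, edgeR's quasi-likelihood test called 1 at a Benjamini-Hochberg adjusted p under 0.05, which is 0.442% of them. At an unadjusted p under 0.05 there were 25 genes higher under stress (11.1%) and 12 lower (5.31%). The median log2 change over all 226 was 0.06. In the sentences that follow every gene is given by its values, and a called gene is one that passed the adjusted test.

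The called gene was Retnlg, resistin-like gamma, a small secreted protein of mature neutrophils (chromosome 16, 48872621 to 48874496, plus strand, GRCm38, protein coding). Its UMIs numbered 27, 108, 23 and 150, which are 131, 88.0, 14.7 and 17.6 per 10000. Both controls lay far above both stress libraries (log2 -2.59, SE 0.33, edgeR adjusted p = 0.0232). The share of cells with a UMI, each cell thinned to 500 UMIs, was 100, 87.5, 23.1 and 39.4%, from 1, 8, 13 and 33 cells.

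Retnlg is one of the genes of the rule, so this test is not independent of how the cells were chosen and its p is not support. A cell without Retnlg had to carry Csf3r or Cxcr2 to enter. With the genes of the rule left out of the sums, 0 of 220 genes were called. With Retnlg taken out of the rule as above it was again called, at log2 -2.74 (edgeR adjusted p = 0.00170). That alternative is not independent either. The barcodes it added, 5 in stress 1 and 1 in stress 2, held no Retnlg by construction, and the controls gained none. The level under stress could therefore only become lower. It was called in 6 of 12 alternatives, with log2 changes from -2.74 to -1.96 and edgeR adjusted p from 9.66e-08 to 0.924. Without control 2 (log2 -2.40), stress 1 (-2.18) or stress 2 (-2.73) it did not pass, and with barcodes of up to 25% mitochondrial UMIs it stood at -2.68 (edgeR adjusted p = 0.0805).

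The promoters of 11 genes of the results were searched for 4 motifs, and 4 that hold a match are shown: Retnlg, the chemokine gene Cxcl2, and the interferon gamma response genes Gbp2 and Irf1. S100a9 held a C/EBP match too, and Cd274, Il1b, Cxcr4, Ccl3, S100a8 and G0s2 held no match of any of the 4. Each one shown is 300 bases from RefSeq (GRCm38.p6), 250 before and 50 after the start of the transcript, on the plus strand and read 5′ to 3′. Capitals mark the motif named with each gene, searched on both strands.
Retnlg, chr16:48872358-48872657, C/EBP motif: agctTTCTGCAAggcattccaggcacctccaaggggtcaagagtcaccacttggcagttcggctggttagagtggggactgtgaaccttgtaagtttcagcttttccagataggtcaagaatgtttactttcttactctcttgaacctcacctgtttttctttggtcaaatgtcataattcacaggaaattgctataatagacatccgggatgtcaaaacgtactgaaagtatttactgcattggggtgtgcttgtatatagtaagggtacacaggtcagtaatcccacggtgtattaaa
Cxcl2, chr5:90903649-90903948, kB motif: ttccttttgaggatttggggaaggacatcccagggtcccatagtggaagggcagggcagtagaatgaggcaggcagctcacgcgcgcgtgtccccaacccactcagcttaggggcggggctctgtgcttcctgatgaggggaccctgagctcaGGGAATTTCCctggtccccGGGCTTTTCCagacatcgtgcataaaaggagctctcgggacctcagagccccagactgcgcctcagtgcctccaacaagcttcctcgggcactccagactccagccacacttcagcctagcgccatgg
Gbp2, chr3:142620413-142620712, interferon-stimulated response element: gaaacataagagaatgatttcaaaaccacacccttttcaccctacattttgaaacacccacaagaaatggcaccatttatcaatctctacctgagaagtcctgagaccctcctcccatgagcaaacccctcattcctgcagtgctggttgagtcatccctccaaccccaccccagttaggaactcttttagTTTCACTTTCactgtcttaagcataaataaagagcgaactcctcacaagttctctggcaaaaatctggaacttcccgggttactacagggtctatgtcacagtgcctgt
Irf1, chr11:53769764-53770063, first of 2 promoters in the table, gamma-activated sequence: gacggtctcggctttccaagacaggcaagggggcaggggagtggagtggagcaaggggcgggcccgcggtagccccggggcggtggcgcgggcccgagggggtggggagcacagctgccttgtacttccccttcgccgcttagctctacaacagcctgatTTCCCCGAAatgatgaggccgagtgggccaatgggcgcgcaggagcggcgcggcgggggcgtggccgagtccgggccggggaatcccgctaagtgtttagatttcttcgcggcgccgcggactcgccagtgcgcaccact
The letters searched were TTGCNNAA for C/EBP factors, GGGNNTTTCC for NF-kB, GAAANNGAAA for the interferon-stimulated response element and TTCNNNGAA for the gamma-activated sequence. Among 32851 promoters of the same length they occurred in 10.8, 1.63, 3.44 and 8.30%. The Cxcl2 window held 2 kB matches and each of the others 1 match of its motif. A match describes the letters and shows no binding.

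Maturation was read from granule genes, which are transcribed at successive stages. Of 8 azurophil granule genes 6 were at 0 in all 55 cells: Mpo (myeloperoxidase), Elane (neutrophil elastase), Prtn3, Ctsg, Ms4a3 and Bpi. The other two are also transcribed by mature and other myeloid cells: Srgn, a granule proteoglycan, had 1459 UMIs in all 55 cells and Lyz2, lysozyme, 107 in 27. Such a 0 allows a share of cells with a UMI of up to 97.5, 36.9, 24.7 and 10.6% in the 4 libraries by the Clopper-Pearson interval, since so few cells were seen.

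Genes of the specific and gelatinase granules were uneven. Camp (cathelicidin) and Ngp were at 0 and Ltf (lactoferrin) had 2 UMIs, in 2 cells of stress 2. Lcn2, also of specific granules, had 96 UMIs in 22 of 55 cells, Mmp8 13 in 9 and Mmp9 104 in 38. By library Mmp9, gelatinase B, had 0, 16, 9 and 79 UMIs, Lcn2, the iron-scavenging lipocalin, 0, 23, 26 and 47, and the collagenase Mmp8 0, 6, 1 and 6. The control 1 cell held none of the 3, and per 10000 UMIs control 2 lay above both stress libraries for each, so the groups overlapped.

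Cell cycle genes were near absent. Mki67 had 10 UMIs in 6 cells of stress 2, but Top2a, Cdk1, Ccnb1, Ccnb2, Mcm3, Mcm5, Tyms, Stmn1 and Ube2c were at 0 in every cell. Ly6g, the surface protein by which mouse neutrophils are usually sorted, had 2 UMIs in control 2 and none elsewhere, and Cd177 none at all. Hmgb2, a chromatin protein of immature and dividing cells, stood at 9.74, 17.9, 3.82 and 4.69 UMIs per 10000 (log2 -1.85, SE 0.49, edgeR adjusted p = 0.114).

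Other genes of mature neutrophils varied without a common direction. Of 27 such genes 26 had a UMI. In 6 (23.1%) both stress libraries lay above both controls while in 7 (26.9%) they lay below. Over all 6282 genes with a UMI in the neutrophils these shares were 17.9% above and 3.68% below. Over the 1550 genes with at least 10 UMIs they were 28.6 and 12.1%. The list's share below thus exceeded both of these, and its share above lay between them. Of the 18 that could be tested none passed, and their median log2 change was 0.01.

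Among them, Wfdc21, a secreted protease-inhibitor-like protein, stood at 14.6, 23.6, 2.55 and 3.64 UMIs per 10000 (log2 -2.66, SE 0.51, edgeR adjusted p = 0.0908). As for Retnlg, both controls lay above both stress libraries. Ccrl2, a chemerin-binding receptor induced on activated neutrophils, stood at 63.3, 16.3, 89.2 and 76.9 (log2 1.57, SE 0.50, adjusted p = 0.201). Hcar2, the niacin and butyrate receptor, stood at 0, 4.89, 17.8 and 17.2. Hdc, which makes histamine, was steadier at 29.2, 31.0, 44.0 and 42.8, and so was Acod1, which makes itaconate, at 29.2, 42.4, 57.4 and 55.9.

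Receptors for entry and retention were read next. Cxcr2, a gene of the rule, had 0, 21, 20 and 78 UMIs (0, 17.1, 12.7 and 9.15 per 10000), and Csf3r, the G-CSF receptor, also of the rule, 1, 19, 31 and 161 (4.87, 15.5, 19.8 and 18.9). For Cxcr2 the groups overlapped, and for Csf3r both stress libraries lay just above control 2. Cells without Retnlg, 7 of 13 in stress 1 and 11 of 33 in stress 2, could enter only through these receptors, so their levels are a description without a test.

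Cxcr4 behaved otherwise: it had 0 UMIs in both controls, 14 in stress 1 and 106 in stress 2, or 0, 0, 8.92 and 12.4 per 10000. Pooled over libraries, its level under stress was 5.68 times a floor of 3 UMIs for the 9 control cells. Such a ratio covers the counting of UMIs alone and not the spread among cells or libraries, so it is a description and not a smallest change. Without control 2 the single cell of control 1 sets a floor above that level and no ratio can be given. The thinned share of cells with a UMI was 0, 0, 23.1 and 36.4%. The gene was not called (edgeR adjusted p = 0.0908). With 0 UMIs in both controls it passed the filter on low counts only through the stress libraries, so neither this p nor those of the alternatives are support. Monocytes had 2.75, 2.94, 3.69 and 3.82 UMIs of Cxcr4 per 10000, so in that class the controls were not at 0.

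Retnlg and Cxcr4 were found together in most cells of stress 2, while in stress 1 most cells with either gene held only 1 of them. In stress 2, 19 of 33 cells held both, 3 Retnlg alone, 8 Cxcr4 alone and 3 neither, and in stress 1 the counts were 2, 4, 5 and 2. Of the 15 migration genes 14 had a UMI and 4 had both stress libraries above both controls (Cxcr4, Itgal, Ltb4r1 and Icam1), a share of 28.6% that is also that of all genes with at least 10 UMIs. The summed list was nearly level, at 77.9, 79.9, 93.1 and 97.4.

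**Figure D2:**
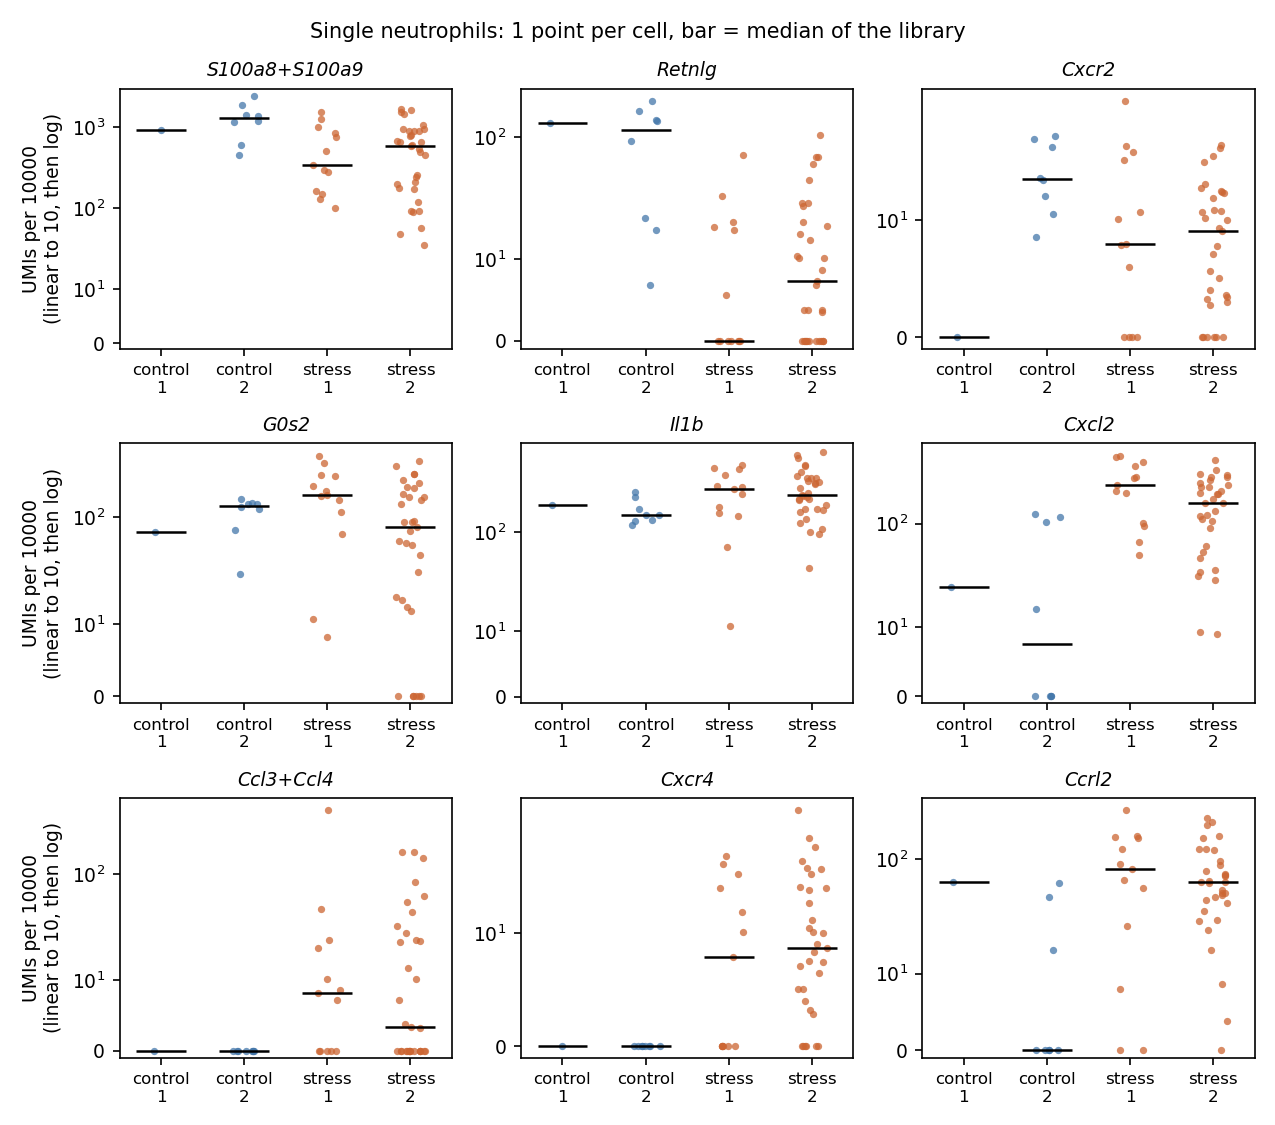
Level of 9 genes or gene pairs in each of the 55 neutrophils, in UMIs per 10000 of the cell's own UMIs (axis linear to 10 and logarithmic above), 1 point per cell with the median of each library as a bar. Retnlg is high in both controls and at or near 0 in many stressed cells, Cxcl2 is at 0 in 4 of 8 cells of control 2 and above 0 in all 46 stressed cells, and Cxcr4, Ccl3 and Ccl4 are at 0 in all 9 control cells.

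Cytokine and chemokine genes were summed as a list, and their level was 287, 288, 617 and 573 UMIs per 10000. The controls were alike, and so were the stress libraries. In monocytes the same list stood at 98.6, 51.5, 113 and 97.9, with control 1 level with stress 2. Of its 18 genes 15 had a UMI in neutrophils, 9 (60.0%) had both stress libraries above both controls and 1 (6.67%) below, beside 17.9 and 3.68% over all genes and 28.6 and 12.1% over those with at least 10 UMIs. Of the 7 tested none passed.

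Il1b, the inflammasome cytokine interleukin 1 beta, had 39, 211, 432 and 2441 UMIs and was found in all 55 cells. Its level was 190, 172, 275 and 286 UMIs per 10000, with both stress libraries above both controls (log2 0.70, SE 0.35, edgeR adjusted p = 0.354). In monocytes it stood at 51.0, 24.5, 81.3 and 64.3. Il1rn, the natural antagonist of its receptor, stood at 24.3, 2.45, 14.0 and 21.0 in neutrophils, where the groups overlapped.

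Cxcl2, a ligand of Cxcr2 and so a neutrophil attractant (chromosome 5, 90903871 to 90905938, plus strand), had 5, 68, 367 and 1415 UMIs, or 24.3, 55.4, 234 and 166 per 10000. Both stress libraries lay above both controls, and the log2 change was 2.11 (SE 0.48, edgeR adjusted p = 0.0908). It was not called by that test. Of 13 alternatives 5 called it, among them DESeq2 (log2 2.24, adjusted p = 0.00840). Those that did not included the replicate block (edgeR adjusted p = 0.191), no filter on low counts (0.312) and up to 25% mitochondrial UMIs (0.147). After thinning 100, 50, 100 and 90.9% of cells held a UMI. In monocytes it stood at 18.9, 5.75, 5.82 and 6.82 and in macrophages at 37.5, 19.4, 13.2 and 15.2, so in neither class did both stress libraries lie above both controls.

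Ccl3 and Ccl4, chemokines that attract monocytes and other leukocytes, had no UMI in any control neutrophil. Ccl3 had 35 and 104 UMIs in the stress libraries and Ccl4 9 and 145, pooled levels 6.58 and 7.29 times the control floor. Without stress 2 these ratios were 10.6 and 2.74. Without control 2 none could be given for Ccl3, and that of Ccl4 was 1.04. A few cells carried most of the UMIs: the top 5 cells held 93.2% of the 44 UMIs of both genes in stress 1 and 70.7% of the 249 in stress 2. The ratios do not cover this spread among cells. Ccl3 was tested and not called (edgeR adjusted p = 0.0908), and like Cxcr4 it passed the filter on low counts only through the stress libraries. In macrophages Ccl3 had the other order, at 4.91, 5.58, 0.936 and 1.07 UMIs per 10000.

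Cxcl3, a further ligand of Cxcr2, had 0, 0, 10 and 52 UMIs, and Cxcl1 0, 0, 17 and 10. Ptgs2, the inducible prostaglandin synthase, stood at 0, 13.9, 34.4 and 33.4 UMIs per 10000 (log2 1.60, SE 0.63, edgeR adjusted p = 0.266). Tnf was low throughout, with 0, 1, 0 and 16 UMIs, and Il6, Il10 and Nos2 were at 0 in all cells. Ccl6 was the one gene of the list with both stress libraries below both controls, at 34.1, 38.3, 1.27 and 11.1 (log2 -2.25, SE 0.75, edgeR adjusted p = 0.210).

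Genes that interferon gamma induces showed the widest gap between the groups among the 9 lists plotted by library. All 14 had a UMI, but the whole list had 1 and 7 UMIs in the controls and 100 and 714 under stress, or 4.87, 5.71, 63.7 and 83.8 per 10000. In 12 of the 14 both stress libraries lay above both controls and in none below, beside 17.9 and 3.68% over all genes and 28.6 and 12.1% over those with at least 10 UMIs. The other two, Gbp4 and Socs1, were at 0 in the controls and in stress 1. After thinning 0, 37.5, 69.2 and 66.7% of cells held a UMI of the list.

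Gbp2, a guanylate-binding protein of host defence, had 0, 0, 18 and 176 UMIs and was found in 0 of 1, 0 of 8, 6 of 13 and 18 of 33 cells. Its pooled level under stress was 9.18 times the control floor, a ratio of 5.48 without stress 2 and of 1.32 without control 2. As for Cxcr4, the ratio covers the counting of UMIs alone. Gbp2 was not called (edgeR adjusted p = 0.0908), and like Cxcr4 it passed the filter on low counts only through the stress libraries. Cd274, the checkpoint ligand PD-L1, stood at 4.87, 0.815, 15.9 and 13.6 UMIs per 10000 (log2 3.26, SE 0.82, edgeR adjusted p = 0.111). Of the 3 genes of the list with enough UMIs to test none passed.

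Irf1, a transcription factor of the same response, stood at 0, 0.815, 5.74 and 14.0 UMIs per 10000, and the immunoproteasome subunit Psmb8 at 0, 0.815, 8.29 and 5.05. Gbp5 had 0, 0, 1 and 38 UMIs, nearly all from stress 2, and Tap1, the peptide transporter of antigen presentation, 0, 1, 3 and 32. The list was also higher under stress in monocytes, at 20.3, 12.8, 42.3 and 40.1. Of the 14 genes of the list 11 had a promoter in the RefSeq table. Of these 9 held a gamma-activated sequence or a response element of the letters above, as did 11.3% of all promoters. The list was chosen as genes that interferon gamma induces, so this share describes the list and says nothing of these cells.

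Type I interferon genes were less even. Their sum was 4.87, 17.1, 22.3 and 46.9 UMIs per 10000, so control 2 lay near stress 1. Of 15 genes 14 had a UMI, with 4 above in both stress libraries, a share of 28.6% that equals that over all genes with at least 10 UMIs, and none below. Of the 2 tested none passed. Isg15, a ubiquitin-like antiviral protein, stood at 4.87, 4.08, 7.65 and 20.3 (log2 1.81, SE 0.81, edgeR adjusted p = 0.326), and the stress libraries differed from each other more than stress 1 did from the controls. In monocytes the list stood at 38.6, 30.9, 48.5 and 42.7.

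**Figure D3:**
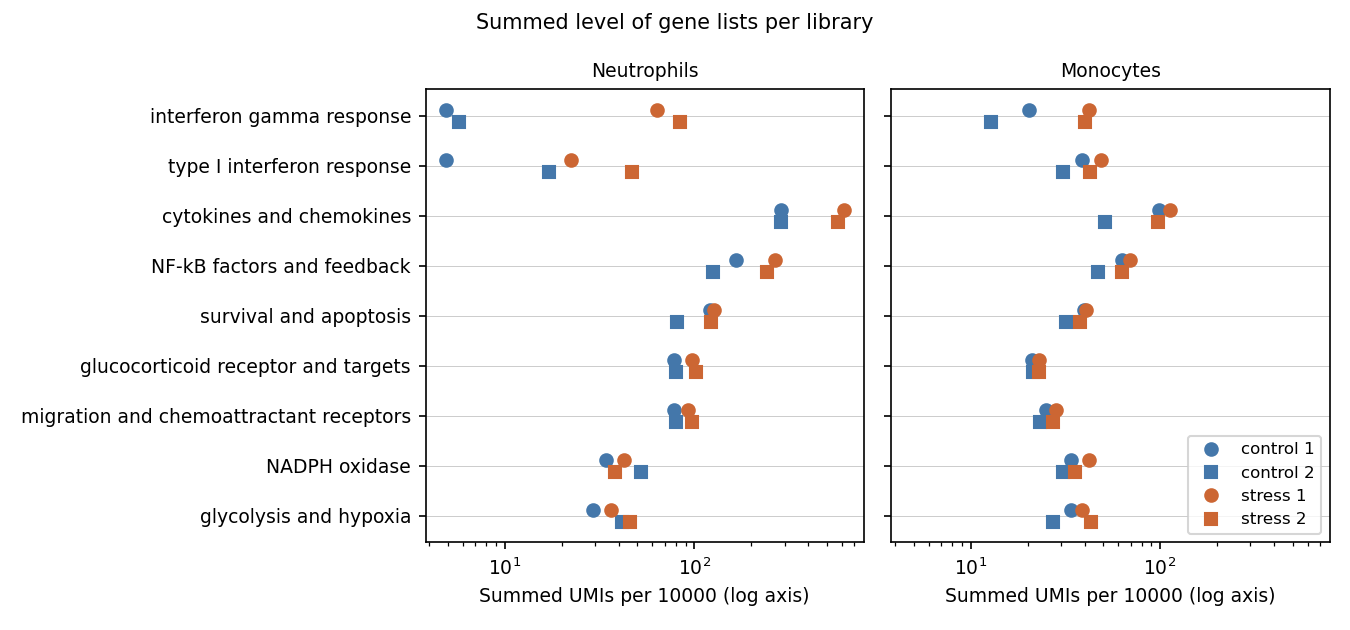
Summed level of 9 gene lists per library in neutrophils (left) and monocytes (right), in UMIs per 10000 on a logarithmic axis, with 1 symbol per library. In neutrophils the interferon gamma list separates the controls (4.87 and 5.71) from the stress libraries (63.7 and 83.8) most widely, while the NADPH oxidase and glycolysis lists overlap.

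NF-kB factors and their feedback inhibitors stood at 166, 126, 266 and 241 UMIs per 10000 as a list, with 8 of 14 genes above in both stress libraries (57.1%, beside 17.9 and 28.6% over the 2 sets of genes) and 1, Rel, below (7.14%, beside 3.68 and 12.1%). Nfkbia, the inhibitor that NF-kB itself induces, stood at 19.5, 31.8, 73.3 and 58.4 (log2 1.18, SE 0.40, edgeR adjusted p = 0.212). Zfp36, which degrades cytokine messages, stood at 9.74, 6.52, 26.1 and 29.2 (log2 1.93, adjusted p = 0.111), and Ier3 at 14.6, 4.08, 47.8 and 15.5. Nlrp3, the inflammasome sensor, overlapped at 43.8, 17.9, 28.0 and 24.3. Both controls lay under both stress libraries for the first 3 of these genes.

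Transcription factors came next. Egr1, an early response factor, had 0, 3, 31 and 194 UMIs (log2 3.32, SE 0.73, edgeR adjusted p = 0.0908), while in macrophages it stood at 5.09, 3.70, 1.19 and 0.863 UMIs per 10000. Junb stood at 34.1, 47.3, 82.9 and 94.6 (log2 1.04, adjusted p = 0.217). Cebpb, the C/EBP factor of mature and emergency granulopoiesis, stood at 87.6, 57.1, 120 and 91.9, and Cebpe, of the promyelocyte stage, had 4 UMIs in all. Of 12 neutrophil transcription factor genes, all with a UMI, 3 were above in both stress libraries (25%) and 1, Mxd1, below (8.33%), between the shares over all genes and those over genes with at least 10 UMIs.

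Survival genes were led by Mcl1, on which neutrophil lifespan depends, at 68.2, 37.5, 45.9 and 44.5 UMIs per 10000 with overlapping groups. Bcl2a1b stood at 4.87, 4.08, 17.8 and 16.8 (log2 1.99, SE 0.59, edgeR adjusted p = 0.170). For Bcl2a1b, Bcl2a1a and Bcl2a1d both stress libraries lay above both controls, but Bcl2a1d had only 2 UMIs in stress 1 and 25 in stress 2. These 3 are near-identical copies whose reads may be exchanged. Of the 10 survival genes 6 were above in both stress libraries (60.0%, beside 17.9 and 28.6%) and none below.

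Restraint raises corticosterone, so targets of the glucocorticoid receptor were read as well. The list stood at 77.9, 79.9, 96.9 and 102 UMIs per 10000, a narrow range. Tsc22d3, a classical target that encodes GILZ, had 0, 14, 4 and 27 UMIs and overlapped, Fkbp5 had 0, 0, 1 and 4, and the receptor Nr3c1 0, 1, 1 and 21. Dusp1, a phosphatase that glucocorticoids and inflammatory signals both induce, stood at 19.5, 42.4, 54.2 and 51.2 (log2 0.53, edgeR adjusted p = 0.570). Of 12 genes 10 had a UMI, 5 were above in both stress libraries (50%, beside 17.9 and 28.6%) and 1, Per1, below (10%, beside 3.68 and 12.1%). Of the 3 tested none passed.

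The oxidase that makes superoxide did not separate the groups. NADPH oxidase genes stood at 34.1, 52.2, 42.7 and 38.1 UMIs per 10000 as a list, with Cyba at 14.6, 19.6, 8.92 and 11.5 and Cybb at 0, 0, 0 and 4 UMIs. Glycolysis and hypoxia genes stood at 29.2, 41.6, 36.3 and 45.8, and the glucose transporter gene Slc2a3 at 0, 13.9, 0.637 and 6.10. In both lists the groups overlapped.

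Beside Retnlg and Wfdc21, the genes with the smallest p among those lower under stress were S100a6, Vim and Hmgb2. S100a6, a calcium-binding protein, stood at 77.9, 93.7, 14.7 and 30.3 UMIs per 10000 (log2 -1.86, SE 0.45, edgeR adjusted p = 0.111). Vim, vimentin, stood at 38.9, 9.78, 0.637 and 2.82 from 45 UMIs (log2 -2.82, SE 0.72, adjusted p = 0.111). Lyz2, lysozyme, stood at 9.74, 26.1, 8.92 and 6.92, and its log2 change of -1.51 turned to 0.24 without control 2.

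**Figure D4:**
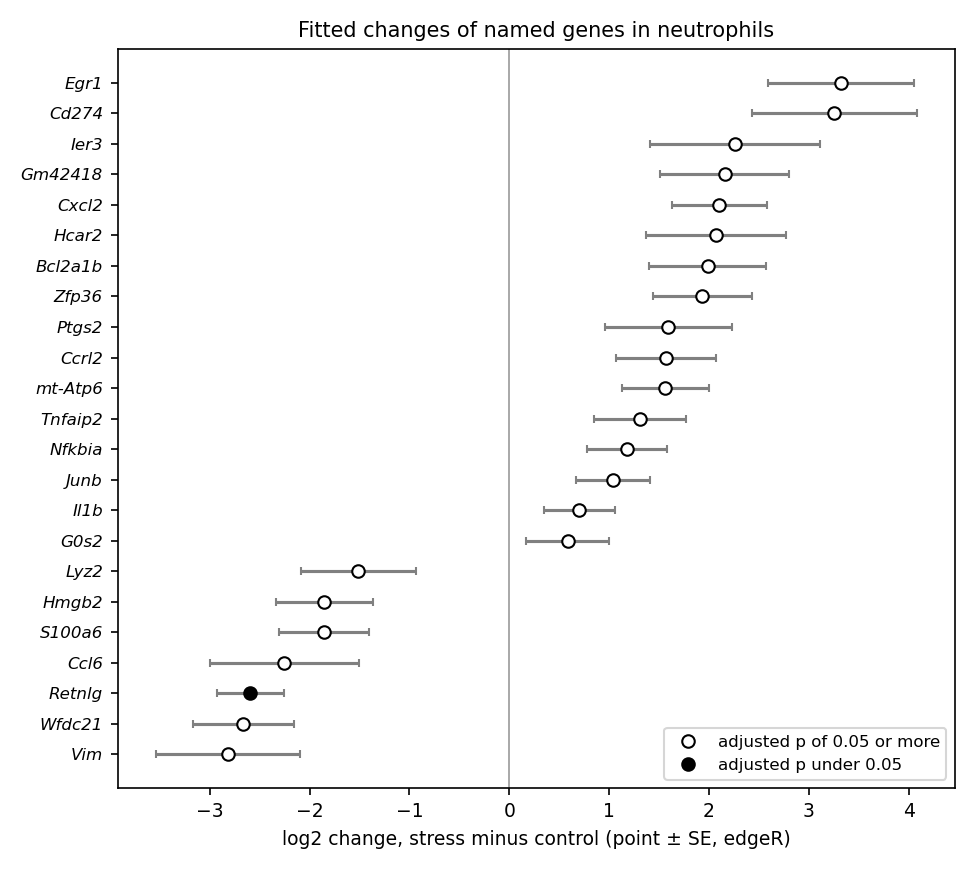
Fitted log2 change, stress minus control, with its standard error for 23 named genes that had UMIs in at least 1 control library, S100a8 and S100a9 left out. Retnlg, at -2.59, is the one gene past an adjusted p of 0.05, but it is a gene of the rule, so its p is not support. Egr1 (3.32) and Cd274 (3.26) have the highest fitted changes among those shown.

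For a pair of transcripts outside the lists both stress libraries lay above both controls in neutrophils and monocytes. Gm42418, a transcript that lies over a ribosomal RNA repeat, stood at 0, 14.7, 42.7 and 62.1 UMIs per 10000 in neutrophils and at 8.78, 30.2, 38.7 and 46.4 in monocytes. The mitochondrial gene mt-Atp6 stood at 9.74, 15.5, 44.6 and 41.3 in neutrophils and at 52.6, 81.1, 94.2 and 84.5 in monocytes. In macrophages the groups overlapped, at 27.3, 37.0, 30.3 and 44.7 for Gm42418 and 66.6, 95.7, 98.9 and 85.5 for mt-Atp6. Control 1 was lowest for both genes in all 3 classes, and their part in the results was not tested.

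The count of called genes moved with the library left out. Without control 1, and so without its single cell, edgeR called 31 genes, 21 higher and 10 lower under stress, among them Retnlg, Cxcl2, Cxcr4, Gbp2 and Cd274. Without control 2, which leaves that 1 cell to stand for the controls, it called none, and without stress 2 none either. Without stress 1 it called 4, among them Ccl3, Cxcr4 and Gm42418. Where a group is left with 1 library, that library is assumed to vary like the others. Cxcr4, Gbp2 and Ccl3, without a UMI in the controls, entered these fits only through the stress libraries, so their calls are not support. Nor are those of Retnlg, S100a8 and S100a9, genes of the rule, which were called without control 1. The fits tested 351 genes without control 1, 376 without control 2, 318 without stress 1 and 263 without stress 2.

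Against monocytes of the same stress libraries, which shows what the gate selected and is not a test, G0s2 was 3032-fold higher. Mmp9, Asprv1 and Stfa2l1 had no UMI in monocytes and stood at 739, 562 and 520 times a floor of 3 UMIs over the group. Lcn2 was 613-fold higher, Hdc 163-fold, Acod1 122-fold and Hcar2 95.8-fold. On the other side Lyz2 stood at a log2 ratio of -4.70, Plac8 at -2.66 and the ribosomal protein genes Rpl13 and Rplp0 at -3.21 and -2.95.

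Beyond the lists, the most abundant transcripts of stressed neutrophils included Fth1, ferritin heavy chain, at 813, 268, 467 and 264 UMIs per 10000, Tmsb4x, an actin-binding peptide, at 214, 231, 163 and 169, and Actb at 156, 132, 88.6 and 92.7. Cd14, the lipopolysaccharide co-receptor, stood at 24.3, 44.8, 56.1 and 38.3 and Tyrobp, an adaptor of activating receptors, at 87.6, 69.3, 71.4 and 48.2. None of these passed the test. Btg1 and Btg2, brakes on proliferation, stood at 97.4, 47.3, 46.5 and 56.0 and at 43.8, 31.0, 42.1 and 44.1, and the groups overlapped for both.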

How the data were processed

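The authors deposited 1 matrix of UMI counts per gene and barcode for each of 4 libraries, made with Cell Ranger (5 and 5.0) against mm10 per the submitters' processing notes, while the matrix headers name software 3.1.0. The counts are not normalised, and barcodes had been called as cells. Neither the annotation release nor the chemistry is given in the sources used here.

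The members and the gene lists were chosen with earlier results of these data known. UMIs were summed per library over the neutrophils and scaled to 10000 for levels. Stress was compared with control by edgeR 4.0.16 (R 4.3.3, limma 3.58.1) with TMM scaling, filterByExpr, robust quasi-likelihood fits and Benjamini-Hochberg adjustment over the 226 genes tested, with DESeq2 1.42.0 as an alternative. The script was tested on simulated data. The sums held 2054 to 85222 UMIs per library. Shares were compared by two-sided exact permutation tests over libraries (Python 3.11.15, scipy 1.17.1). Cells were thinned to 500 UMIs (seed 1) for shares of cells with a UMI. Doublets were kept, and Scrublet (through scanpy 1.11.5) was an alternative that left out 1 neutrophil, of stress 1, among the barcodes with the highest scores.

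Named genes were list members with at least 10 UMIs, the 10 most abundant others, the 10 with the highest ratio to monocytes, and the 5 with the smallest p in each direction, and the text gives those that carry the results. Gene positions are from GENCODE vM21 (GRCm38, the assembly of mm10). Alternatives changed 1 choice at a time: the limits of the rule, thinning (with its lowered thresholds), the filter, the scaling, the tool, the replicate block and each library left out. Some genes of the lists are counted in their sums but are not reported here by name.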

Additional observations from a re-analysis of the deposited data

Results flagged for a closer look

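In stress 2, 7 barcodes that met every other condition of the neutrophil rule held more than 10% mitochondrial UMIs and were therefore outside the analysis, and no such barcode was found in the other 3 libraries. Their median depth was 2794 UMIs, close to the 2784 of the neutrophils kept in that library, and none held over 25% mitochondrial UMIs. With them the library had 40 neutrophils, 0.853% of the barcodes under the wider limit. Whether they are damaged cells was not tested.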

How the results depend on the processing

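The number of genes called, 1, depended on nearly every choice. It was 24 with scaling by library size alone, 2 with DESeq2, 15 with at least 20 UMIs of S100a8 and S100a9, and 0 with no filter on low counts or with barcodes of up to 25% mitochondrial UMIs. Leaving out 1 library gave 0 to 31. Of 2 alternatives added after seeing the data, the rule without Retnlg gave 15 calls and sums without the genes of the rule 0. Equal replicate numbers did not pair the libraries (correlation of deviations 0.0563 for control 1 with stress 1), and with the replicate block 0 genes were called. Of the values of named genes, 294 stayed on their side of the threshold, 69 newly passed it and 6, all of Retnlg, no longer did, while S100a8, a gene of the rule, and Lyz2 turned positive without control 2 (0.31 and 0.24) and were lowest without control 1 (-1.25 and -1.80). The difference in the share of kept barcodes ranged from 0.0630 to 0.706 percentage points with 1 library left out. For this share control 2 lay above stress 1 in the alternatives named with it above. The difference in the share of myeloid cells ranged from -1.04 to 5.55 percentage points with 1 library left out. It was negative without control 1 (-0.917) and without stress 2 (-1.04). The share of cells with specific granule genes differed by 0 percentage points thinned, 3.03 not thinned and 1.25 at the 25% limit, and that of cells with Mki67 or Top2a by 3.03 thinned and 9.09 not thinned. The cause was not tested for any of these. With 9 control cells, most genes were too low to test: 226 of the 6282 with a UMI were tested.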
